A study of Mus musculus with 3 samples.

Results

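Genes of the blood vessel wall were followed in hippocampal RNA from 3 pools of male C57BL/6J mice, each read on 1 Affymetrix whole-transcript array. The list held 35 genes, given by name, of 19504 genes with a symbol on the array. All 35 were found, each with a single probe set. By role they comprised 6 genes of cell junctions, 4 receptors, 5 transporters, 7 transcription factors and 5 other surface or secreted proteins of endothelial cells, 4 pericyte genes and 3 smooth muscle genes. The last gene, Cspg5, encodes neuroglycan C, which is known from neurons and glia and not from vessels, so its values are given apart.

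The RE pool came from 4 restraint-stressed mice injected in the lateral ventricle with 20 μg of serum extracellular vesicles (EVs) of mice housed with a running wheel. The RS pool came from 4 restraint-stressed mice that received the same amount of EVs from sedentary donors, and the NV pool from 3 unrestrained mice that received vehicle (PBS). Restraint was applied 6 h per day for 3 weeks, the mice were labelled as 11 weeks old, and tissue was taken 3 days after the injection, following perfusion with PBS. The NV label itself speaks of vesicles and its protocol note of vehicle, and the sample description names ventral hippocampus where the study names hippocampus. RS and NV differ in restraint as well as in the injected material, and these cannot be told apart. With 1 array per group there is no replicate spread and no test, so a gene is called higher or lower only when the log2 signals of 2 pools differed by at least 1, which is 2-fold.

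The capillaries of the brain form the blood-brain barrier. Their endothelial cells are sealed by tight junctions, carry selective transporters for glucose, lipids and drugs, and are wrapped by pericytes, whereas arterioles are wrapped by contractile smooth muscle cells. Endothelial identity is kept by transcription factors of the ETS, SOX and KLF families, and signals through VEGF, angiopoietin and TGF-β family receptors shape the vessel wall.

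The deposited log2 signals had medians of 6.55 in RE, 6.62 in RS and 6.64 in NV. Signals at or under 6.01 were treated as background. Of the values of 1448 genes for odour, pheromone and taste receptors, taken over all pools together, 95% did not exceed this level. The NV pool stood apart from the others: over all genes the log2 differences had an SD of 0.35 when RE was set against RS, but 0.57 when either was set against NV. Dentate gyrus markers were above NV in RS, where 9 of 14 were called higher and 0 lower with a median of 1.82, and so were oligodendrocyte markers, with 5 of 11 higher, 0 lower and a median of 0.95. These calls made up 64.3% and 45.5% of the lists, beside 7.80% of all genes. The thalamic transcription factor gene Tcf7l2 was at 8.54 in RE, 8.21 in RS and 12.89 in NV. The part of tissue composition in the vessel values was not tested. Fewer vessel cells and less RNA per cell cannot be told apart in such bulk samples.

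Of the 35 genes, 17 were above the background level in all 3 pools, 9 in some and 9 in none. The 9 genes in none were Sox17, Sox18, Foxq1, Klf2, Erg, Eng, Emcn, Tagln and Myh11, and their values are given with that limit. In RS against NV, 3 of the 35 genes were higher, where 3.52% of all genes were, and 0 were lower, where 4.29% of all genes were. In RE against RS, 0 were higher, against 0.441% of all genes, and 1 was lower, against 0.723%. In RE against NV, 3 were higher, against 2.87%, and 0 were lower, against 5.12%. In both directions together 8.57% of the 35 genes were called in RS against NV, beside 7.80% of all genes, 8.57% in RE against NV, beside 7.98%, and 2.86% in RE against RS, which is 1 gene, beside 1.16%. The calls of Acta2, Sox7 and Eng rest on values below the background level. With such values raised to that level, Ocln alone was called against NV, in RS and in RE, and 0 genes in RE against RS, where 4.22%, 3.58% and 0.323% of all genes were called in RS against NV, RE against NV and RE against RS. The median difference of the 35 genes was -0.06 for RS against NV, beside -0.01 over all genes, 0.02 for RE against RS, beside -0.07, and 0.03 for RE against NV, beside -0.06. Differences within 0.5 of 0 were found for 23 of the genes in RS against NV and for 29 in RE against RS.

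**Figure D1:**
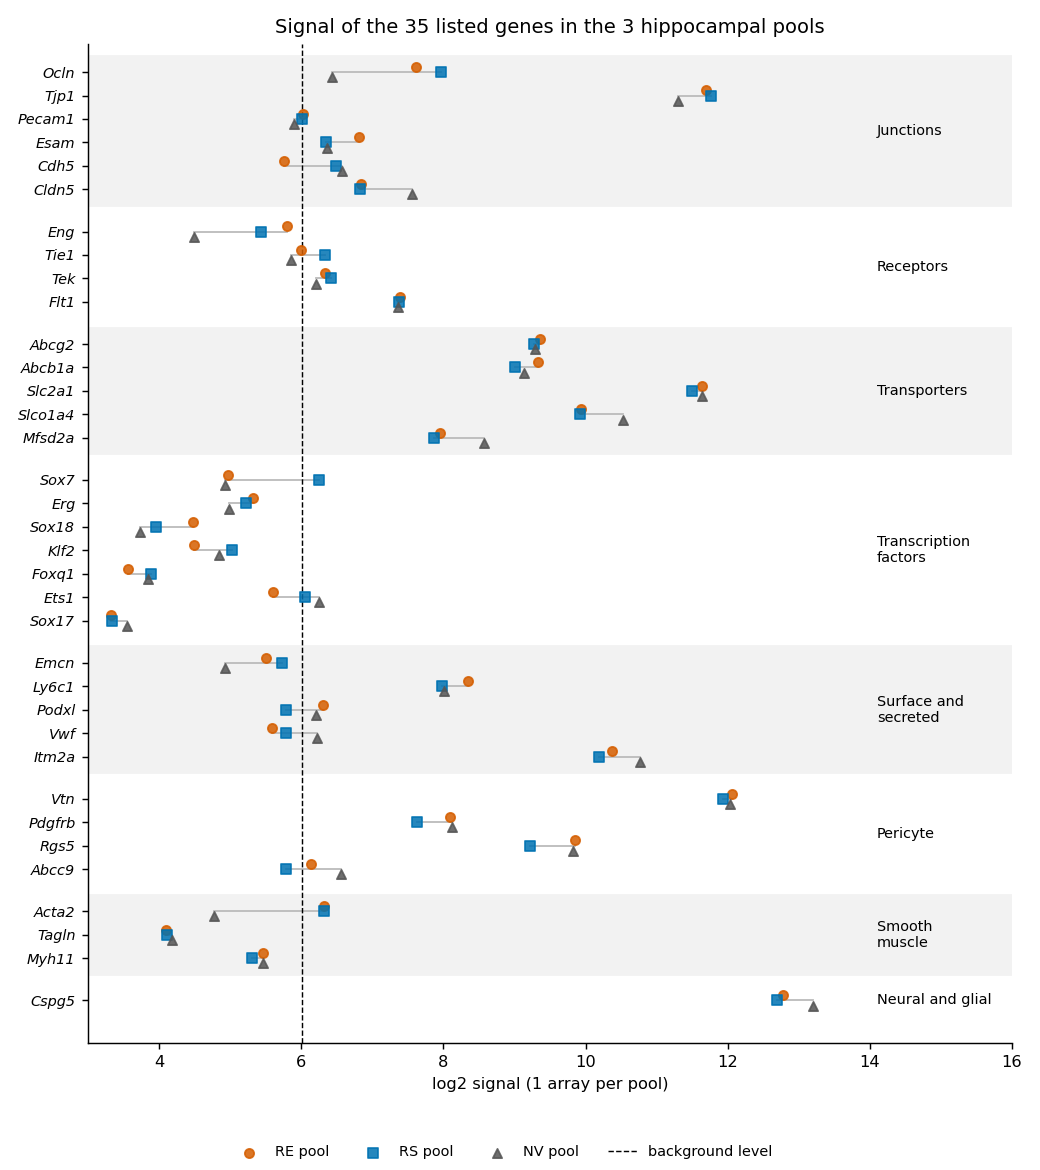
Log2 signal (x axis) of each of the 35 genes (rows, by role) in the RE pool (circles), the RS pool (squares) and the NV pool (triangles), with 1 array per pool and the background level of 6.01 as a dashed line. The widest gaps between pools are those of Acta2, Ocln, Sox7 and Eng, and most transcription factor genes lie left of the line.

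Among the junction genes, Ocln alone was called. Ocln, which encodes the tight junction protein occludin, had a log2 signal of 7.61 in RE, 7.97 in RS and 6.43 in NV. It was 2.91-fold higher in RS than in NV, a log2 difference of 1.54, and 2.26-fold higher in RE than in NV, and it was above the background level in all pools. The RE and RS pools lay near each other, 0.36 apart, and both above NV. Cldn5, the main claudin of the blood-brain barrier, had 6.85 in RE, 6.83 in RS and 7.56 in NV. Its differences of -0.73 for RS against NV and -0.71 for RE against NV missed the 2-fold threshold, and it was near equal in RE and RS.

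None of the other junction genes was called. Tjp1, the scaffold protein ZO-1 that anchors occludin and claudins, had 11.69 in RE, 11.77 in RS and 11.30 in NV, which is 0.47 between RS and NV. Cdh5, the VE-cadherin of endothelial adherens junctions, had 5.75 in RE, 6.49 in RS and 6.58 in NV. Its difference of -0.73 between RE and RS was, after that of Sox7, the most negative of the 35 genes in this comparison, and the RE value was below the background level. Esam, an immunoglobulin-type adhesion molecule of endothelial tight junctions, had 6.82 in RE, 6.35 in RS and 6.36 in NV. Pecam1, an adhesion molecule of endothelial contacts, had 6.02 in RE, 6.01 in RS and 5.90 in NV, close to the background level in every pool.

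The promoters of these 2 tight junction genes, whose differences had opposite signs, are printed here with that of Acta2, which had the largest difference of the 35 genes as deposited, though against an NV value below the background level, and is described below with smooth muscle. They run from 250 bases before to 50 bases after a transcription start, 5′ to 3′ on the gene's strand, from RefSeq on GRCm38.p6, where 21 of the 35 genes had a promoter, that of Ocln being the first of its 2 starts. Capitals mark GGAA or its reverse complement TTCC, the core that ETS factors such as Erg and Ets1 bind.
Ocln promoter, chr13:100552669-100552968, minus strand: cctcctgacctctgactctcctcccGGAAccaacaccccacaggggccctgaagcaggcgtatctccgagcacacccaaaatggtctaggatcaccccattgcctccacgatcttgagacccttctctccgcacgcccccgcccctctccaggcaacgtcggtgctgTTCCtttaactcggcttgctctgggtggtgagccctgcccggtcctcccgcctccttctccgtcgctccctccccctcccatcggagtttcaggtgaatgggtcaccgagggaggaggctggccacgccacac
Cldn5 promoter, chr16:18776597-18776896, plus strand: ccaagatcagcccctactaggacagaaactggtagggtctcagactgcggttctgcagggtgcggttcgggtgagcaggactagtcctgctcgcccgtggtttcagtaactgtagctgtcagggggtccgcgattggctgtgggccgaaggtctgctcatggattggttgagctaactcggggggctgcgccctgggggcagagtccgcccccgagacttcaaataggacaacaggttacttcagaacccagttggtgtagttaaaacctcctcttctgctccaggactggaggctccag
Acta2 promoter, chr19:34255324-34255623, minus strand: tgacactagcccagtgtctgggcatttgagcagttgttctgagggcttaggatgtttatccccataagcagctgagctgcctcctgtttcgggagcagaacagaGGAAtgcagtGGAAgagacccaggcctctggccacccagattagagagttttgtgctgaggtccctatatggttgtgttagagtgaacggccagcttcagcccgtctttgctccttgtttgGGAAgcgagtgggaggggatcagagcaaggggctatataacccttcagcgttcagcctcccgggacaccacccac
The core was found at 2 places in the Ocln window, at 0 in that of Cldn5 and at 3 in that of Acta2. It stood in 95.9% of 27025 promoters of the same length, 1 per gene, and in 19 of the 21 vessel gene promoters, all but Cldn5 and Slc2a1. The share among vessel genes, 90.5%, was thus no higher than among all. TTGT or ACAA, the core of SOX factor sites, was in 16 of the 21 promoters and 81.2% of all, and CACCC or GGGTG, the core of KLF factor sites, in 17 of the 21 and 56.7% of all. These letter matches, which can overlap each other, are a description and not binding sites.

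All 4 receptor genes had signals in RS and RE at or above those in NV, by 0.02 to 0.95 in RS and by 0.02 to 1.31 in RE. In RS this held for 3 of the 4 once the trend on signal was removed, and in both pools for 3 of the 4 after quantile normalization. Eng, which encodes the TGF-β co-receptor endoglin, had 5.80 in RE, 5.44 in RS and 4.49 in NV. It was higher in RE than in NV, by 1.31 or 2.47-fold, and missed the threshold in RS with 0.95, but all 3 values were below the background level. Tie1, an orphan receptor that acts with the angiopoietin receptor, had 6.00 in RE, 6.34 in RS and 5.86 in NV. The RE and NV values of Tie1 were below the background level. Tek, the angiopoietin receptor Tie2, had 6.33 in RE, 6.43 in RS and 6.20 in NV. Flt1, a receptor of VEGF that also serves as a decoy, had 7.39 in RE, 7.38 in RS and 7.37 in NV and was the steadiest of the 35 genes. None of these 3 receptors was called in any comparison.

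The 5 transporter genes were all above the background level, and none was called. Each was below NV in RS, by 0.02 to 0.70, and above RS in RE, by 0.02 to 0.31, and these directions held under each scaling that was run. RS enters both differences, so the directions are not independent. Mfsd2a, the lipid transporter that carries docosahexaenoic acid across the barrier, had 7.96 in RE, 7.87 in RS and 8.58 in NV. Slco1a4, an organic anion transporter, had 9.94 in RE, 9.92 in RS and 10.52 in NV. For both genes the RE and RS pools were near equal and lay 0.58 to 0.70 under NV.
Abcb1a, the drug efflux pump P-glycoprotein, had 9.32 in RE, 9.01 in RS and 9.14 in NV. Slc2a1, the glucose transporter GLUT1, had 11.64 in RE, 11.50 in RS and 11.64 in NV. Abcg2, another efflux pump, had 9.36 in RE, 9.28 in RS and 9.29 in NV. Between pools these 3 transporters differed by 0.31 at most.

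Of the 7 transcription factor genes, Sox7 was called and only Ets1 besides it exceeded the background level in any pool. Sox7, a SOX factor of endothelial cells, had 4.97 in RE, 6.24 in RS and 4.92 in NV. It was higher in RS than in NV, with a log2 difference of 1.32, and lower in RE than in RS, with -1.28. In RE it lay 0.05 from NV, so the RS array alone was high. Its RE and NV values were below the background level, and with these raised to that level the difference was 0.24 in RS against NV, or at least 1.18-fold, and -0.24 in RE against RS. Of all genes, 0.138% had a more negative difference between RE and RS.
Its relatives Sox17 and Sox18 are SOX factors of the same group. Sox18 had 4.48 in RE, 3.95 in RS and 3.73 in NV, and Sox17 had 3.33 in RE, 3.33 in RS and 3.54 in NV. Neither was called, and in no pool did they exceed background.
Ets1, an ETS factor of endothelial and immune cells, had 5.60 in RE, 6.06 in RS and 6.24 in NV, with the RE value below the background level. Erg, the ETS factor that keeps endothelial identity, had 5.32 in RE, 5.22 in RS and 4.98 in NV. Klf2, a factor induced by blood flow, had 4.49 in RE, 5.03 in RS and 4.84 in NV, and Foxq1, a forkhead factor found in brain endothelium, had 3.56 in RE, 3.89 in RS and 3.85 in NV. Differences among these 4 genes stayed between -0.64 and 0.33.

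None of the 5 other surface or secreted genes of endothelial cells was called. Emcn, the sialomucin endomucin, had 5.50 in RE, 5.73 in RS and 4.92 in NV, a difference of 0.81 between RS and NV at values below the background level. Itm2a, a membrane protein abundant in brain endothelium, had 10.37 in RE, 10.19 in RS and 10.77 in NV, a difference of the opposite sign, -0.58, between RS and NV. Podxl, the sialomucin podocalyxin, had 6.31 in RE, 5.78 in RS and 6.20 in NV. It was lowest in RS, where the value was below the background level, from which the difference between RS and NV was -0.19. Vwf, the clotting protein von Willebrand factor, had 5.59 in RE, 5.79 in RS and 6.21 in NV. It was highest in NV, with the RE and RS values below the background level. Ly6c1, a surface protein of brain endothelium, had 8.34 in RE, 7.98 in RS and 8.01 in NV, highest in RE.

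**Figure D2:**
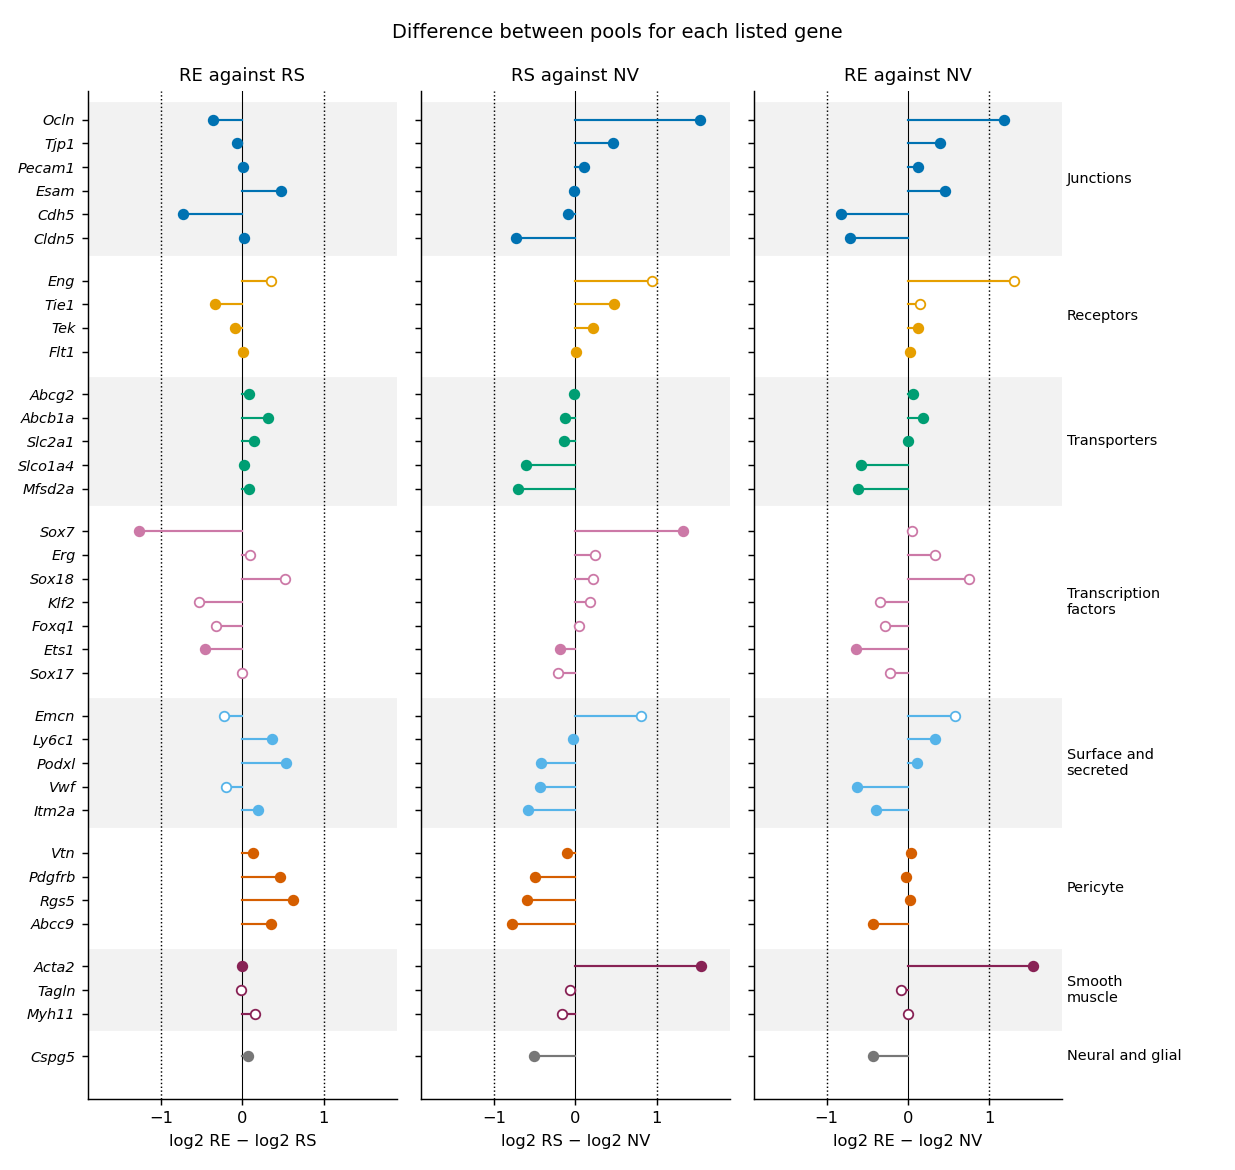
Log2 difference between pools (x axis) of each of the 35 genes (rows, coloured by role) for RE against RS, RS against NV and RE against NV, with dotted lines at the 2-fold threshold. Open circles mark genes whose higher array was below the background level of 6.01, and the pericyte genes lie right of 0 in RE against RS and left of 0 in RS against NV.

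The 4 pericyte genes shared a negative sign in RS against NV and a positive sign in RE against RS, with none called. Their differences ran between -0.78 and -0.10 in RS against NV, with a median of -0.54, and between 0.13 and 0.62 in RE against RS, with a median of 0.41. In RE against NV they ran between -0.43 and 0.03, with 2 positive and 2 negative. The signs of the RS against NV and the RE against RS differences held under each scaling that was run, and the RS array is shared by both. Rgs5, a regulator of G protein signalling and a pericyte marker, had 9.85 in RE, 9.22 in RS and 9.82 in NV. Its difference of 0.62 between RE and RS was the highest of the 35 genes in that comparison, above 97.1% of all genes. Pdgfrb, the PDGF receptor through which endothelial cells recruit pericytes, had 8.09 in RE, 7.63 in RS and 8.12 in NV. For both genes RE and NV were near equal and RS lay under them.
Abcc9, a subunit of the ATP-sensitive potassium channel of pericytes, had 6.13 in RE, 5.78 in RS and 6.56 in NV. Its difference of -0.78 between RS and NV was the most negative of the 35 genes, and its RS value was below the background level. Vtn, the secreted matrix protein vitronectin, had 12.06 in RE, 11.93 in RS and 12.03 in NV. Its spread over the pools was 0.13.

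Of the 3 smooth muscle genes, Acta2 was called and the others were not. Acta2, the smooth muscle actin of contractile cells, had 6.32 in RE, 6.32 in RS and 4.78 in NV. It was 2.92-fold higher in RS than in NV, a log2 difference of 1.55, and 2.91-fold higher in RE than in NV. The RE and RS arrays differed by -0.01 and NV alone was low, but the NV value was below the background level, and measured from that level the bound was 1.25-fold for RS and 1.24-fold for RE. Myh11, the smooth muscle myosin heavy chain, had 5.46 in RE, 5.30 in RS and 5.47 in NV. Tagln, the actin-binding protein transgelin, had 4.10 in RE, 4.12 in RS and 4.18 in NV. Both stayed below the background level and within 0.16 over the pools.

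Cspg5 had 12.77 in RE, 12.70 in RS and 13.20 in NV, with differences of -0.50 for RS against NV and 0.07 for RE against RS. Leaving it out changed no count of called genes.

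**Figure D3:**
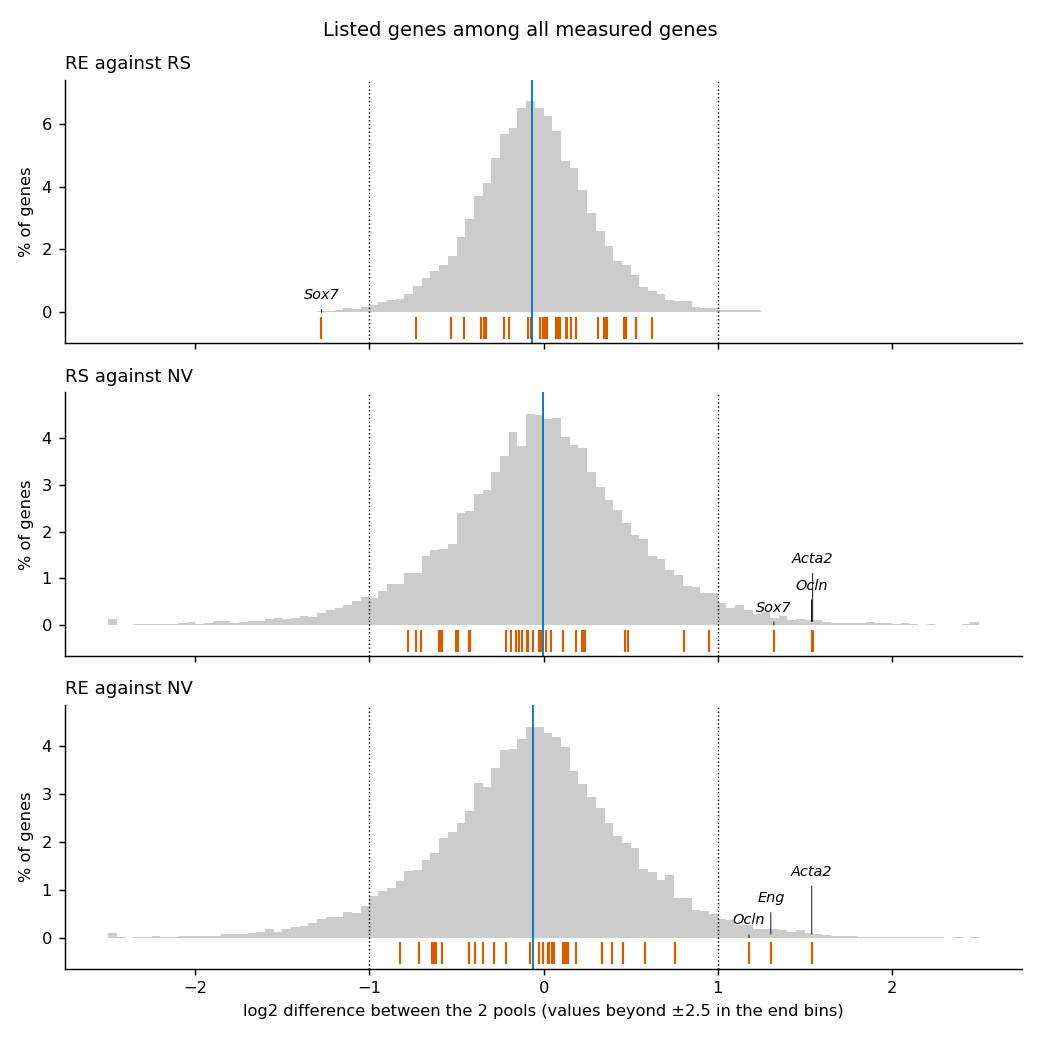
Share of the 19504 genes (y axis, %) by log2 difference between pools (x axis), as grey bars, with the median of all genes as a blue line, the 2-fold threshold as dotted lines and each of the 35 listed genes as an orange tick. Most ticks lie in the body of each distribution, and the called genes are labelled: Sox7 in RE against RS, Sox7, Ocln and Acta2 in RS against NV, and Ocln, Eng and Acta2 in RE against NV.

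The pools can also be put in order for each gene. RS was the lowest pool for 16 of the 35 genes, or 45.7%, beside 26.5% of all genes, and RE was the lowest for 7, or 20.0%, beside 37.5%. With each array centred on its median, these became 18 genes and 29.3% of all genes for RS. Among the 17 genes above the background level in all pools, a set formed from these values, RS was the lowest for 13 and RE for 0. Of the 10518 genes that met the same condition, RS was the lowest for 23.2% and RE for 31.7%. After quantile normalization these shares were 31.0% and 28.8%. The 4 genes not lowest in RS were Ocln, Tjp1, Flt1 and Tek, and Cspg5, which is not a vessel gene, is among the 13. These are descriptions of 3 arrays, with no test.

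Genes of the vessel wall beyond the 35 were taken from lists of textbook markers. Of 28 further endothelial genes measured, RS had 1 higher and 1 lower than NV, and 0 were called in RE against RS. In RS against NV this is 7.14% of the list, beside 7.80% of all genes. Cd34, a sialomucin of endothelial and progenitor cells, had 10.05 in RE, 9.89 in RS and 8.32 in NV, a difference of 1.56 between RS and NV. Hmcn1, which encodes an extracellular matrix protein, had 5.05 in RE, 5.03 in RS and 6.20 in NV, and its call is lost when the RE and RS values are raised to the background level. Kdr, the main signalling receptor of VEGF, had 7.67 in RE, 6.69 in RS and 7.44 in NV, and its difference of 0.99 between RE and RS just missed the threshold. RS was the lowest pool for Kdr, as it was for 6 of the 28 genes. Differences of the other sign between RE and RS were found for 15 of the 28, with a list median of -0.03. Among them was Lmo2, a transcriptional co-factor, with 6.27 in RE, 6.89 in RS and 6.82 in NV. Only 14 of the 28 genes were above the background level in any pool, which limits these signs and orders.

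Of 33 further barrier genes 0 were called in RE against RS, with a median of 0.07, and likewise 0 in RS against NV, with a median of -0.14. Marveld2, which encodes tricellulin of junctions where 3 cells meet, had 6.34 in RE, 5.37 in RS and 5.32 in NV, and differed by 1.01 between RE and NV. Its RS and NV values were below the background level, and measured from that level the difference was 0.33, so this call is not retained. Abcc4, an efflux transporter, had 6.32 in RE, 6.67 in RS and 7.45 in NV, and was called lower in RE than in NV with -1.13. Of 35 genes of angiogenic signalling, Ephb4, the venous ephrin receptor, was higher in RS than in NV, with 6.92 in RE, 7.32 in RS and 5.52 in NV. The NV value of Ephb4 was below the background level, from which the difference was still 1.31. Its ligand gene Efnb2 was lower, with 12.09 in RE, 11.43 in RS and 12.61 in NV. The receptor and its ligand thus had opposite signs in RS, and neither gene is used by vessels alone. Their calls in RS against NV made up 5.71% of the angiogenic list, beside 7.80% of all genes.

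Of 20 genes of arterial or venous identity, 2 were higher and 4 lower in RS than NV, and 1 was higher in RE than in RS. Together 30.0% of the list was called in RS against NV, beside 7.80% of all genes. For RE against RS it was 5%, which is 1 gene, beside 1.16%. With values raised to the background level 1 was higher and 2 were lower in RS than in NV, Ephb4, Efnb2 and Nr2f2. This left 15% of the list called, beside 4.22% of all genes, while the calls of Lrg1, Tmem252 and Selp were lost. The lists overlap: Ephb4 and Efnb2 are also counted among the angiogenic genes, and Lrg1 and Selp among those of activated endothelium. The gene called in RE against RS was Nr2f2, the transcription factor COUP-TFII of venous endothelium and of some neurons, with 11.75 in RE, 10.60 in RS and 13.01 in NV. It was lower in RS than in NV, with -2.42, and RE lay between them. Tmem252 had 5.90 in RE, 5.54 in RS and 6.60 in NV, with the RE and RS values below the background level.

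Among 20 genes known from activated endothelium, RS had 4 higher and 1 lower than NV, with a median of 0.40. RE had 0 higher and 1 lower than RS, with a median of -0.12. Only 10 of the 20 genes were above the background level in any pool. The genes on either side of the RS against NV median, Socs3 with 0.35 and Lcn2 with 0.46, were below it in all pools. The calls made up 25.0% of the list in RS against NV, beside 7.80% of all genes. For RE against RS it was 5%, which is 1 gene, beside 1.16%. With values raised to the background level 3 were higher in RS than in NV, Il1r1, Ptgs2 and Cxcl12, and 0 lower. This left 15% of the list called, beside 4.22% of all genes. Il1r1, the interleukin-1 receptor, had 8.79 in RE, 9.89 in RS and 8.08 in NV. It was higher in RS than in NV, with 1.81, and lower in RE than in RS, with -1.11, above the background level throughout. Ptgs2, the inducible cyclooxygenase, had 9.61 in RE, 10.11 in RS and 8.53 in NV, and Cxcl12, a chemokine that holds progenitor cells, had 10.01 in RE, 9.95 in RS and 8.56 in NV. Lrg1, a glycoprotein made by venous endothelium, had 6.33 in RE, 6.24 in RS and 5.21 in NV, the last below the background level, from which the RS difference was 0.23. Il1r1, Ptgs2 and Cxcl12 are also used by neurons of the hippocampus, including the dentate gyrus, whose genes were higher in RS, and the part of these cells was not tested. The 1 lower gene was Selp, the adhesion molecule P-selectin, with 3.51 in RE, 3.53 in RS and 4.54 in NV, all below the background level. The adhesion molecule gene Vcam1 had 8.83 in RE, 8.22 in RS and 8.12 in NV and was not called.

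Of 22 further pericyte genes, RS had 0 higher and 1 lower than NV, with a median of 0.02. That is 4.55% of the list called, beside 7.80% of all genes. On this list 10 of the 22 differences between RS and NV were negative, beside 4 of 4 for the listed pericyte genes. In RE against RS the list had a median of -0.09, with 9 differences positive and 13 negative, whereas all 4 listed pericyte genes were positive. RS was the lowest pool for 4 of the 22 genes and RE for 10. Only 12 of the 22 genes were above the background level in any pool, which limits these signs and orders. Zic1, above that level in all pools, had 8.53 in RE, 7.69 in RS and 8.55 in NV, with the signs of the listed pericyte genes. Slc6a13, also above it in all pools, had 7.53 in RE, 8.28 in RS and 8.99 in NV and was lowest in RE. The gene called in RS against NV was Kcnj8, the pore of the channel that Abcc9 belongs to, with 5.17 in RE, 5.58 in RS and 6.74 in NV. Its RE and RS values were below the background level, so their order is not measurable, and from that level the difference between RS and NV was -0.73, which is not called. Of 20 further smooth muscle genes, RS had 1 higher and 2 lower than NV. These calls made up 15% of the list, beside 7.80% of all genes. With values raised to the background level the share was 5%, beside 4.22%. Only 9 of the 20 genes were above that level in any pool. The higher one was Itga8, an integrin subunit, with 9.38 in RE, 9.19 in RS and 7.86 in NV. The lower ones were Lmod1, of the actin filaments of smooth muscle, with 5.76 in RE, 5.75 in RS and 6.95 in NV, and Sncg, a synuclein, with 5.12 in RE, 5.12 in RS and 6.37 in NV. The RS values of Lmod1 and Sncg were below the background level, from which the differences were -0.94 and -0.36, so neither call was kept, while that of Itga8 was.

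**Figure D4:**
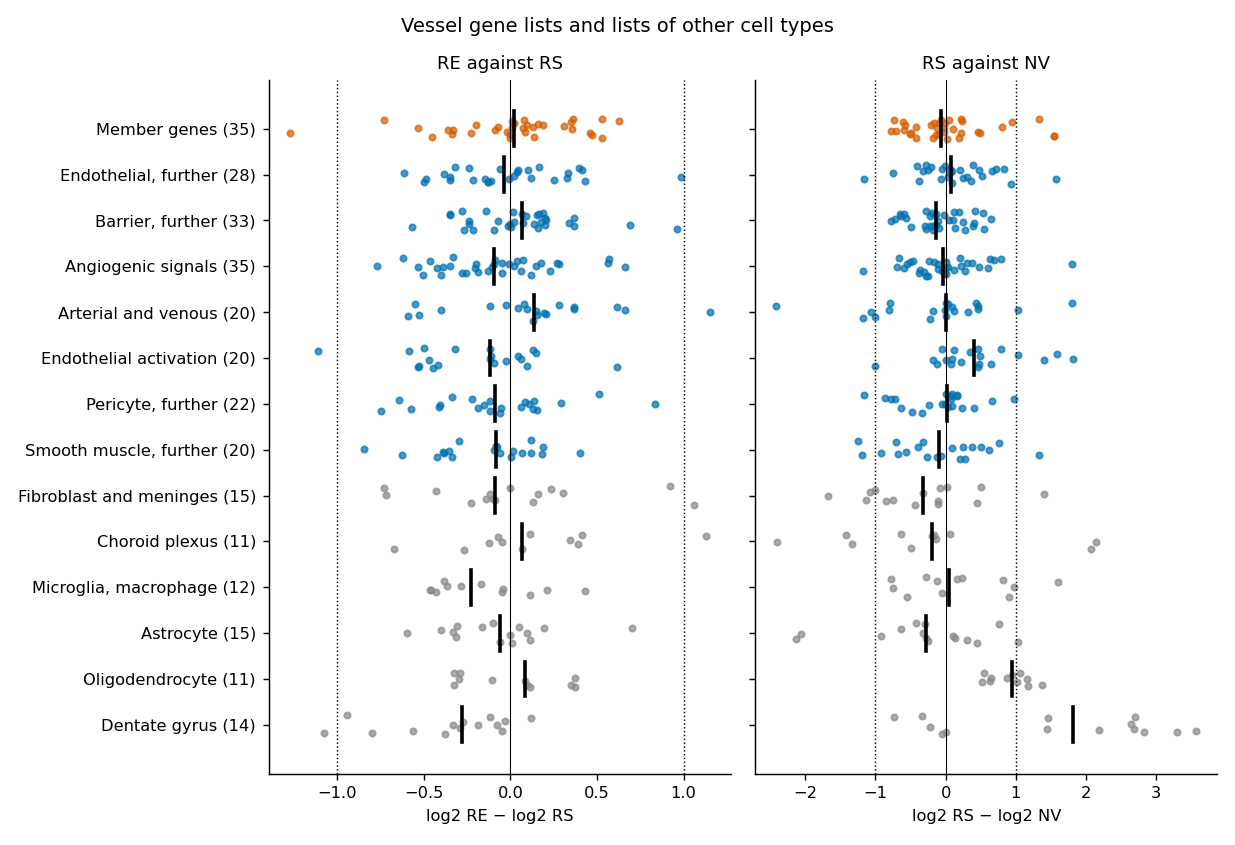
Log2 difference of each measured gene (points) by list (rows, number of genes in brackets) for RE against RS and RS against NV, with the median of each list as a black bar and the 2-fold threshold as dotted lines. The listed vessel genes (orange) and the further vessel lists (blue) have medians near 0, apart from 0.40 for endothelial activation in RS against NV. Only 10 of the 20 genes of that list were above the background level in any pool. In the same comparison the lists of other cells (grey) include 0.95 for oligodendrocytes and 1.82 for the dentate gyrus.

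Deposited values carry a shift between arrays that bears on the direction of calls. Of all genes called in RE against RS, 37.9% were higher as deposited, with 86 higher and 141 lower. With the difference centred on its median of -0.07 this share was 54.2%. In RE against NV the share was 35.9% as deposited and 48.6% after quantile normalization. The calls of Sox7, Ocln, Acta2 and Eng kept their directions under these settings.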

How the data were processed

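Hippocampi were pooled within each group by the authors, and the RNA of each pool was read on 1 Affymetrix whole-transcript array. The authors deposited log2 signals of 22205 probe sets. RMA and Affymetrix Power Tools are named in the notes of the submitters, and Command Console in the methods of the study. Their versions are not given in the sources used here. The lowest value was 2.71 and the highest 19.93. How values above 16, the limit of a plain 16-bit scan, arose is not given in these sources.

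Genes were named through the platform annotation, with 19571 probe sets named and 2634 unnamed here. Where a gene had more than 1 probe set (55 genes), the set of highest mean stood for it, which left 19504 genes. All 19571 gene identifiers matched RefSeq (GRCm38.p6) and 0 symbols changed. Differences of log2 values between pools were computed and a 2-fold threshold was used for calls. Array signal has no read depth, and the number of arrays limits the precision. The members and lists were chosen with earlier results of these data known. Besides the 35 members, the genes named from a further list were those with the largest differences among genes above the background level, up to 4 in RS against NV and up to 3 in RE against RS. Selp was named after its values were seen. Gene lists were written from textbook knowledge, and a list's count covers its measured genes only. Some genes stand on more than 1 list, so their calls are counted on each.

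The settings varied were centring, a filter on low signal, removal of the lowess trend on signal (span 0.3), quantile normalization, the mean of probe sets, a 1.5-fold threshold, and the list without Cspg5 or with endothelial genes only. Raising values to the background level, for the members and the further lists, was added after seeing the data. The computations were tested on simulated data. They ran in python 3.11.15 with pandas 2.3.3, numpy 2.4.6 and statsmodels 0.14.6, and figures were drawn with matplotlib 3.10.9. The study's behavior, cell and small RNA experiments were not analysed here.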

Additional observations from a re-analysis of the deposited data

How the results depend on the processing

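The counts of called vessel genes, 3 in RS against NV, 3 in RE against NV and 1 in RE against RS, stayed within 1.5 times under the filter on low signal, centring, lowess, quantile normalization and both shorter lists. The mean of probe sets could change nothing, since each of the 35 genes has 1. With lowess and with quantile normalization RS against NV had 4, Eng being added with 1.09 and 1.10. With a 1.5-fold threshold the counts were 10 in RS against NV (5 higher, 5 lower) and 9 in RE against NV (4 higher, 5 lower). In RE against RS the count was 3 (1 higher, 2 lower). Of all 19504 genes, 2391 were higher and 2579 lower at this threshold in RS against NV. These numbers were 2041 and 3123 in RE against NV, and 675 and 1234 in RE against RS. With values raised to the background level, chosen after seeing the data, RE against RS had 0, while RS against NV and RE against NV had 1 each, Ocln alone. By construction this setting takes away differences below that level, and it removed the calls of Acta2, Sox7 and Eng. The medians of the list moved by less than 0.1 under every setting run. For RE against NV the median of 0.03 became -0.03 after quantile normalization. Of 315 values of single genes under centring, lowess and quantile normalization, 251 kept their call or, if not called, moved by less than 0.1, 2 newly passed the threshold, 62 that were not called moved by more, and 0 called values changed sign. No paired analysis was possible because each group has 1 array, and for the same reason no array could be left out. The 9 genes below the background level in every pool are limited by signal, and a lack of difference there was not measurable.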

Other observations

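Other cells that border the vessels had mixed values. Of 15 fibroblast and meninges genes, RS had 1 higher and 4 lower than NV, with a median of -0.32, and RE had 1 higher than RS. In RS against NV 33.3% of the list was called, beside 7.80% of all genes. In RE against RS the share was 6.67%, which is 1 gene, beside 1.16%. Ptgds, a prostaglandin synthase of the meninges, had 13.64 in RE, 12.72 in RS and 14.39 in NV, and Dcn, the matrix proteoglycan decorin, had 13.89 in RE, 12.83 in RS and 13.96 in NV. Both were lowest in RS, as were 6 of the 15, while 7 were lowest in RE and 2 in NV. Col1a1, a collagen chain, had 6.78 in RE, 7.50 in RS and 7.58 in NV, and Bgn, the proteoglycan biglycan, had 6.99 in RE, 7.10 in RS and 5.70 in NV. With values raised to the background level, chosen after seeing the data, RS had 1 higher and 2 lower than NV on this list. That is 20.0% of the list, beside 4.22% of all genes. Of 11 choroid plexus genes, RS had 2 higher and 3 lower than NV. This is 45.5% of the list, or 18.2% with values raised to the background level, beside 7.80% and 4.22% of all genes. Ttr, the thyroid hormone carrier of the choroid plexus, had 8.20 in RE, 7.85 in RS and 5.78 in NV, and Kl had 7.58 in RE, 7.65 in RS and 5.52 in NV, while Otx2 had 4.38 in RE, 4.43 in RS and 6.83 in NV. Kcnj13, a potassium channel of this tissue, had 6.60 in RE, 5.47 in RS and 6.89 in NV. With values raised to the background level the calls of Ttr and Kl were kept and those of Otx2 and Kcnj13 were lost.

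Of 12 microglia and macrophage genes, 1 was higher in RS than in NV, Aif1 with 6.88 in RE, 7.34 in RS and 5.73 in NV. Of 15 astrocyte genes, RS had 1 higher and 2 lower than NV. Slc6a11, a GABA transporter, had 12.15 in RE, 11.96 in RS and 14.09 in NV, and Agt, the angiotensin precursor, had 10.31 in RE, 9.61 in RS and 11.67 in NV. Gfap had 12.71 in RE, 13.02 in RS and 11.99 in NV. None of the 10 leukocyte genes, the 3 red blood cell genes or the 9 ependymal genes measured was called in any comparison. Only 1 leukocyte gene and 2 ependymal genes were above the background level in any pool, so a difference was hardly measurable there. Of the red blood cell genes 2 were above it in all pools. Slc4a1 had 7.77 in RE, 8.33 in RS and 7.66 in NV, and Bpgm had 9.99 in RE, 9.86 in RS and 9.56 in NV. The listed globin genes were not measured. Of 9 genes of oligodendrocyte precursors, RS had 1 lower than NV, Lhfpl3, with 9.54 in RE, 9.46 in RS and 11.14 in NV. Of 12 neuron genes, RS had 1 higher and 2 lower than NV. Neurod6, of excitatory neurons, had 15.28 in RE, 15.61 in RS and 13.16 in NV, and Gad2, of inhibitory neurons, had 11.53 in RE, 11.37 in RS and 12.93 in NV. The shares called in RS against NV were 8.33% for microglia and macrophages and 20.0% for astrocytes. They were 11.1% for oligodendrocyte precursors and 25.0% for neurons, beside 7.80% of all genes.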
